A study of Homo sapiens with 13 samples.

Results

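The genes described here are 10 genes of the male germ line, STK31, TDRD1, TDRD6, TDRD9, TEX14, TAF7L, DAZL, DDX4, MAEL and SYCP3, measured in a cell line that is not of germ cell origin. They were found by their gene symbol among the 21775 symbols of the array annotation, which gave 13 of the 42405 probes on the array, 2 probes each for STK31, TDRD1 and TDRD6 and 1 for each other gene. RNA came from HEK293T cells, an SV40 large T antigen line derived from human embryonic kidney, and was hybridised to 13 Agilent 2-colour arrays, each with a treated RNA in 1 dye (Cy3 or Cy5) and its control RNA in the other. UNC0638, which blocks the catalytic activity of G9a (gene EHMT2) and its partner GLP (EHMT1), both methyltransferases of histone H3 lysine 9, was used at 1 µM for 48 h against the solvent DMSO in 5 biological replicates, of which replicates 1 and 2 were hybridised in both dye orientations (7 arrays). An siRNA against WIZ, a zinc finger partner of G9a and GLP, was compared with control siRNA at 72 h in 2 biological replicates, each in both orientations (4 arrays). G9a siRNA was set against control siRNA, again at 72 h, in 2 biological replicates that each had Cy5 on the treated RNA and no dye swap (2 arrays). Per the labels both siRNAs were transfected with a lipid reagent. The siRNAs lower a protein while the inhibitor leaves it in place, the times differ, and sharing of control RNA between the siRNA treatments is not stated.

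In germ cells of the testis, small RNAs bound by PIWI proteins, called piRNAs, silence transposons, and proteins with Tudor domains gather PIWI proteins and RNA helicases into granules where piRNAs are made and used. As meiosis begins, the synaptonemal complex forms along paired chromosomes, and germ cells stay joined by cytoplasmic bridges. Many of these genes are silent in body cells, where DNA methylation and a variant Polycomb complex that contains MGA, MAX and E2F6 act at their promoters. G9a and GLP, which mono- and dimethylate histone H3 at lysine 9, have been purified together with E2F6, MGA and MAX.

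Values are given as the log2 of treated over control signal after background correction and within-array normalization. A gene was called changed at an adjusted p under 0.05 in limma over all 34619 probes with signal. The targeted transcripts were lowered in their own knockdowns. WIZ RNA was left at 23.1% of control under WIZ siRNA and EHMT2 RNA at 31.6% under G9a siRNA (limma adjusted p = 0.00181 and 0.00289). Under G9a siRNA the 3 probes of EHMT1, which encodes GLP, stood at 67.4%, 64.5% and 120% of control (limma adjusted p = 0.00512, 0.0788 and 0.144), so 1 of them was called lower and they differ in sign. Median spot brightness was 194 to 415 in Cy3 and 151 to 638 in Cy5. The lowest pixel SD of the local Cy3 background split the arrays in 2 sets, with 4 or 5 on the arrays of UNC0638 replicates 1 and 2 and of WIZ siRNA (set 1) and 11 on those of UNC0638 replicates 3 to 5 and G9a siRNA (set 2). UNC0638 replicate 3 was closer to G9a siRNA than to its own group. Its ratios correlated across probes at 0.867 and 0.83 with the G9a siRNA replicates, and at 0.0994 to 0.641 with the other UNC0638 replicates. The UNC0638 values of named genes with signal are therefore also given without it. Replicate 4 leaned the same way, at 0.468 with each G9a siRNA replicate and 0.186 to 0.352 with UNC0638 replicates 1, 2 and 5. Replicates 1, 2 and 5 correlated at only 0.0434 to 0.438 with each other. Of the marker genes, 8 of 8 for HEK293T cells were well above background in the control RNA of all 13 arrays, as were 2 of 4 for blood cells, 1 of 4 for fibroblasts, 3 of 4 for Sertoli and Leydig cells and 0 of 4 for late spermatids. Their part in the results was not tested.

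Most of the germ cell genes gave little signal in these cells. A spot counted as well above background where it exceeded the local background median by more than 2.6 background SDs, and 9 probes of 8 genes passed the filter built on this (50% or more of the arrays of any treated or control RNA). Of these, 4 carried signal on most or all arrays. TDRD6 (probe A_33_P3232965) and STK31 (A_23_P42784) were well above background in both RNAs on 13 of 13 arrays, TEX14 (A_23_P54996) in the control RNA on 13 and in the treated RNA on 12, and TAF7L (A_23_P217621) on 11 and 11. TDRD1 (A_33_P3373329), TDRD9 (A_32_P208350), DDX4 (A_23_P256624), SYCP3 (A_23_P76374) and the other STK31 probe (A_33_P3221498) reached it in the control RNA on 2, 5, 6, 4 and 6 arrays. The remaining 4 probes did not pass: those of DAZL and MAEL, 1 of TDRD1 (A_33_P3232995) and 1 of TDRD6 (A_33_P3232960). In the control RNA they were well above background on 1, 3, 0 and 1 of 13 arrays. Ratios of probes near the background are drawn towards 0 and carry little information on the gene.

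**Figure D1:**
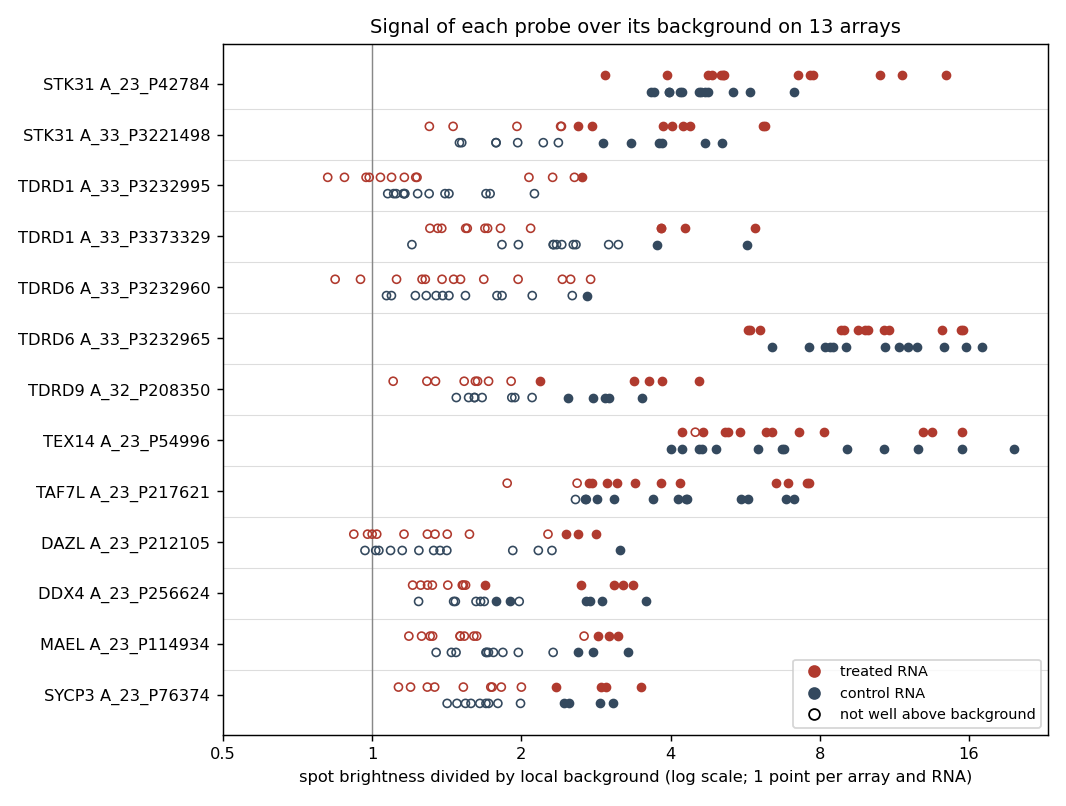
Spot brightness divided by local background (log axis) for the 13 probes, 1 point per array and RNA; red points are treated RNA, dark blue points control RNA, and open points are not well above background. The probes of STK31 (A_23_P42784), TDRD6 (A_33_P3232965) and TEX14 lie clear of their background on nearly all arrays, while both RNAs of DAZL, DDX4, MAEL and SYCP3 lie near it on most.

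STK31, which encodes a Tudor domain protein with a kinase-like region that associates with PIWI proteins in the testis, rose with UNC0638 on both of its probes. On the probe with signal throughout (A_23_P42784), raw spot brightness was 84 to 192 in the DMSO RNA and 187 to 477 in the UNC0638 RNA over the 7 arrays. The log2 ratio was 0.56 and 0.64 in replicates 1 and 2 when Cy3 labelled the treated RNA, and 0.83 and 1.16 when Cy5 did. It was 0.82, 0.70 and 0.96 in replicates 3 to 5, whose single arrays had the treated RNA in Cy5. All 7 arrays were above 0, in both dye orientations, and no replicate overlapped those of WIZ siRNA or G9a siRNA. How many of all probes separate in this way was not counted. The mean over replicates was 0.82 ± 0.117 (SD, n = 5), a 1.76-fold rise, higher in 5 of 5 replicates (SE 0.057, limma adjusted p = 0.000228), and 0.81 without replicate 3. In RNA from a whole culture, more RNA per cell and more cells that express the gene cannot be told apart.

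The other STK31 probe (A_33_P3221498) gave ratios of 0.35, 0.52, 0.43, 0.33 and 0.48 in replicates 1 to 5. All 5 were above 0, and none overlapped the WIZ siRNA replicates, a separation not counted over all probes. Its mean was 0.42 ± 0.0815 (SD, n = 5, SE 0.046, limma adjusted p = 0.00138), also 0.42 without replicate 3. Signal clear of background was present for UNC0638 RNA on 4 of 7 arrays and for DMSO RNA on 3 of 7, all of them in set 1. The authors' deposited log2 ratios, which rest on another background correction and normalization, gave 1.21 and 1.00 for the probes (limma adjusted p = 0.00122 and 0.00787). In sets 1 and 2 the first probe had 0.80 and 0.83, and the second 0.43 and 0.42. Both passed the test within set 1 (adjusted p = 0.00059 and 0.00725) but not within set 2 (0.0532 and 0.0902). The UNC0638 arrays of set 2 all had the treated RNA in Cy5, while those of set 1 balanced the 2 dyes. On no set 2 array was either RNA of the second probe well above background, so its value there gives no fold. Its mean over all 5 replicates includes those arrays and is not read as a fold either. These were 2 of 9 member probes called with UNC0638, both of 1 gene, beside 3.24% of all probes tested. The median of the 9 probes was 0.08, and that of all probes -0.0099.

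The first STK31 probe differed between WIZ siRNA and UNC0638. Under WIZ siRNA it had a mean of 0.11 ± 0.0538 (SD, n = 2, limma adjusted p = 0.988), and the difference from UNC0638 was -0.71 (95% interval -0.95 to -0.47, limma adjusted p = 0.0221). On this comparison 1 of 9 member probes passed, beside 0.705% of all probes. It did not pass without WIZ siRNA replicate 1 (adjusted p = 0.35), WIZ siRNA replicate 2 (0.293) or UNC0638 replicate 2 (0.0614), with differences of -0.67, -0.75 and -0.69, or with the dye effect subtracted (-0.51, adjusted p = 0.235). The second probe lay at 0.03 and -0.03 in the 2 WIZ siRNA replicates, and its difference from UNC0638, -0.42 (95% interval -0.62 to -0.23), did not pass (limma adjusted p = 0.0768). Within set 1, which holds arrays of both treatments, both probes passed, at -0.69 and -0.43 (adjusted p = 0.00743 and 0.036).

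Under G9a siRNA the first STK31 probe rose, at 0.61 and 0.41 in the 2 replicates (mean 0.51, 1.43-fold, SE 0.089, limma adjusted p = 0.00415), with 0.92 in the authors' deposited log2 ratios. The second probe was not well above background in either RNA of either replicate, so it gives no fold there. Its difference from UNC0638 passed (-0.32, SE 0.086, adjusted p = 0.0434), with G9a siRNA values that are bounded by the background, and it did not pass in 14 of 18 alternatives run. For the first probe, the difference of G9a siRNA from UNC0638 was -0.30 (95% interval -0.54 to -0.06, adjusted p = 0.0865) and from WIZ siRNA 0.40 (0.12 to 0.69, adjusted p = 0.0505), neither of which passed in limma. The former passed with the GC trend of the probes removed (-0.52, adjusted p = 0.0261) and with median centring in place of the brightness-dependent normalization (-0.41, adjusted p = 0.0455), and the latter when each gene was represented by its brightest probe (0.40, adjusted p = 0.0498) or the spread was taken from the 4 siRNA replicates alone (0.40, adjusted p = 0.0248).

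The ratios of the first STK31 probe differed by dye orientation. With the treated RNA in Cy5, the WIZ siRNA arrays of this probe read 0.54 and 0.59, within the range of the 2 G9a siRNA arrays, and the reverse orientation read -0.40 and -0.30. The dye effect of the probe, measured on the 4 dye-swapped replicates as the mean excess of the Cy5 orientation over the average of both, was 0.33. With it subtracted the G9a siRNA value was 0.18 (adjusted p = 0.279), and with the GC trend of the probes removed it was 0.22 (adjusted p = 0.0993), neither called. The probe is 35% GC, and all probes of that class had a median of 0.24 under G9a siRNA. At 45% and 55% GC the G9a siRNA medians were -0.03 and -0.37, so ratios fell with GC content over all probes with a sequence. From 35% to 55% GC the medians went from 0.07 to -0.08 with UNC0638 and from -0.01 to 0.05 with WIZ siRNA. The dye effect was subtracted only from replicates without a dye swap, which are both of G9a siRNA but only replicates 3 to 5 of UNC0638. With UNC0638 the value was then 0.62 (adjusted p = 0.00232), and with the GC trend removed 0.74 (adjusted p = 0.000215), both called. The 2 treatments thus did not receive the same dye correction. G9a siRNA and WIZ siRNA also lie in different array sets, so set and treatment cannot be told apart in their difference.

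**Figure D2:**
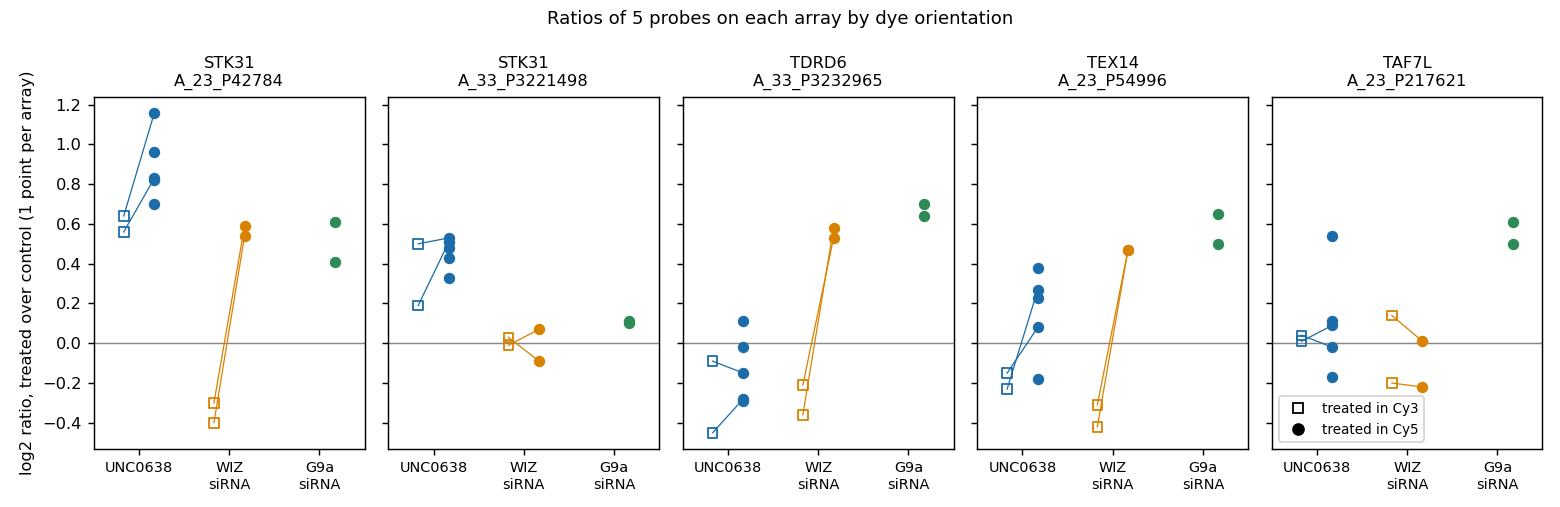
Log2 ratios of treated over control RNA on each array for 5 probes, 1 point per array; open squares have the treated RNA in Cy3, filled circles in Cy5, and lines join the 2 arrays of a dye-swapped replicate. The STK31 probe A_23_P42784 lies above 0 in both orientations under UNC0638, while under WIZ siRNA it reads -0.40 and -0.30 in Cy3 and 0.54 and 0.59 in Cy5.

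The sequence before the STK31 start is shown because MGA with MAX binds the E-box CACGTG and E2F6 binds TCCCGC. Both letter strings were searched on both strands. CACGTG is its own reverse complement, TCCCGC was also searched as GCGGGA, and a match of one can overlap a match of the other by 1 base. RefSeq promoter windows (build GRCh38.p14) were matched for 9 of the 10 genes by symbol. In the 250 bases before each start, CACGTG stood in 6.34% of all 35116 windows and TCCCGC in 23.5%, and both in 1.87%. Counted by gene, CACGTG stood before a start of 4 of the 9 genes, STK31, TDRD1, DAZL and MAEL, beside 7.73% of all 27305 genes with a window. TCCCGC stood before a start of 4, STK31, TAF7L, DAZL and SYCP3, beside 27.0%. Both strings shared a window in 2 of the 9 genes, STK31 and DAZL, and the DAZL probe did not pass the filter on signal. The windows of STK31, TDRD1 and TDRD6 follow, 5′ to 3′ on the gene's strand, with these strings in capitals. They are chr7:23709969-23710218, chr10:114179037-114179286 and chr6:46687635-46687884, each on the plus strand of GRCh38.p14.
STK31: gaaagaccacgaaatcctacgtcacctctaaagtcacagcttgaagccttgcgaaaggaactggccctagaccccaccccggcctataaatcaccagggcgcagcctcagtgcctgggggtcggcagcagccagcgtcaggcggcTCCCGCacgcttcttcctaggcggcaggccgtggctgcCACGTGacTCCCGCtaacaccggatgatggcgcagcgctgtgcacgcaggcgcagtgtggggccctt
TDRD1: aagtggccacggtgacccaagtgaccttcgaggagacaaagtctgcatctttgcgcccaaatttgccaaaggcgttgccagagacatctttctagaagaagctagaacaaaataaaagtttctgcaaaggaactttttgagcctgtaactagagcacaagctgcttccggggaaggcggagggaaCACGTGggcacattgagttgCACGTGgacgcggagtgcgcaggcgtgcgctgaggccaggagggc
TDRD6: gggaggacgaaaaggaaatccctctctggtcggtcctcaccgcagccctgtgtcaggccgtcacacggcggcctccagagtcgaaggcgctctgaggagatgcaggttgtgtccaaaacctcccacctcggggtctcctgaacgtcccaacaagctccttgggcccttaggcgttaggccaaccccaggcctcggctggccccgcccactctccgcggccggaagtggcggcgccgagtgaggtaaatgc
The STK31 window holds 1 CACGTG, which begins 67 bases before the start, and 2 matches of TCCCGC. The TDRD1 window shown, 1 of 2 for that gene, holds 2 CACGTG, but TDRD1 lay too near the background for its change to be read, with 1 probe untested and the other well above background in DMSO RNA on 1 of 7 arrays. The TDRD6 window holds neither string. The letters are a description and do not show binding, and no binding was measured here.

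TDRD6, which encodes a large Tudor protein of the chromatoid body of spermatids, rose with G9a siRNA and did not pass the test with the inhibitor. On the probe with signal (A_33_P3232965), the ratio was 0.64 and 0.70 in the 2 G9a siRNA replicates. It was -0.37, -0.12, 0.11, -0.29 and -0.02 in UNC0638 replicates 1 to 5, and 0.11 and 0.16 under WIZ siRNA. The G9a siRNA replicates lay above all replicates of the other treatments, and 4 of 5 UNC0638 replicates lay below 0. The share of all probes with such a separation was not counted, and 33.8% of all probes were called with G9a siRNA. The mean under G9a siRNA was 0.67 ± 0.0382 (SD, n = 2; 1.59-fold, SE 0.11, limma adjusted p = 0.00373). Under UNC0638 it was -0.14 (limma adjusted p = 0.306), or -0.20 without replicate 3, and under WIZ siRNA 0.13 (limma adjusted p = 0.984).

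The difference of TDRD6 between G9a siRNA and UNC0638 was 0.81 (95% interval 0.51 to 1.10, limma adjusted p = 0.0201). It was 0.74 within set 2, where it did not pass (adjusted p = 0.252), and 0.87 without UNC0638 replicate 3 (adjusted p = 0.00108). That replicate was set apart for its likeness to G9a siRNA in these same data, so the last value adds no separate support. The difference between G9a and WIZ siRNA was 0.54 (95% interval 0.18 to 0.89, limma adjusted p = 0.0412), but these treatments lie in different array sets, so treatment and set cannot be told apart. The WIZ siRNA arrays with the treated RNA in Cy5 read 0.58 and 0.53, close to the G9a siRNA arrays, and those with it in Cy3 read -0.36 and -0.21. The UNC0638 pairs read -0.45 in Cy3 and -0.28 in Cy5 in replicate 1, and -0.09 and -0.15 in replicate 2. The dye effect of 0.22 averages the unlike pairs of both treatments, all in set 1, while the G9a siRNA arrays lie in set 2. Subtraction of the dye effect of the WIZ siRNA pairs alone was not tested. With 0.22 subtracted, TDRD6 under G9a siRNA was 0.45 and still called (adjusted p = 0.0139). Its difference from WIZ siRNA was 0.31 and was not called (adjusted p = 0.184). In these comparisons 2 of 9 member probes differed between G9a siRNA and UNC0638, TDRD6 up and the second STK31 probe down, beside 12.5% of all probes, and 1 of 9 between G9a and WIZ siRNA, beside 20.4%.

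TEX14, a protein of the bridges between germ cells, and TAF7L, a germ cell form of the TFIID subunit TAF7 encoded on the X chromosome, also rose with G9a siRNA. TEX14 read 0.50 and 0.65 in the G9a siRNA replicates, against 0.02, -0.03, 0.23, 0.38 and -0.18 with UNC0638 and 0.08 and 0.03 with WIZ siRNA. The G9a siRNA replicates lay above all others, though the share of all probes with such a separation was not counted. Its mean of 0.58 ± 0.106 (SD, n = 2; 1.49-fold, SE 0.12) passed in limma (adjusted p = 0.00751), and the means of 0.08 and 0.05 under UNC0638 and WIZ siRNA did not (limma adjusted p = 0.577 and 1), with 0.05 under UNC0638 without replicate 3. On both WIZ siRNA arrays with the treated RNA in Cy5 the ratio was 0.47, and in Cy3 it was -0.31 and -0.42. With its dye effect of 0.30 subtracted the G9a siRNA value of TEX14 was 0.28 (adjusted p = 0.122), and with the GC trend removed it was 0.29 (adjusted p = 0.0742), neither called. Nor was it called with median centring (0.34, adjusted p = 0.0783) or in the authors' log10 table (0.70, adjusted p = 0.176).

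TAF7L read 0.50 and 0.61 with G9a siRNA, 0.05, 0.01, 0.54, 0.11 and -0.17 with UNC0638, and 0.08 and -0.21 with WIZ siRNA. UNC0638 replicate 3, at 0.54, fell within the range of the G9a siRNA replicates, and the other 4 UNC0638 replicates lay below it. The mean under G9a siRNA was 0.55 ± 0.0787 (SD, n = 2; 1.47-fold, SE 0.15, limma adjusted p = 0.0177), with control RNA well above background in 1 of 2 replicates. Under UNC0638 it was 0.11 (limma adjusted p = 0.537) and 0.0015 without replicate 3. The dye effect of this probe was -0.02, and TAF7L under G9a siRNA stayed called with it subtracted (0.57, adjusted p = 0.0207) and with the GC trend removed (0.46, adjusted p = 0.0232), but not within set 2 (0.55, adjusted p = 0.0673). In the authors' deposited log2 ratios it was 1.19 (adjusted p = 0.0174).

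The differences of TEX14 and TAF7L between treatments did not pass. For TEX14 they were 0.49 from UNC0638 (95% interval 0.17 to 0.82, limma adjusted p = 0.0555) and 0.52 from WIZ siRNA (0.13 to 0.92, limma adjusted p = 0.0613). For TAF7L they were 0.44 (0.06 to 0.83, limma adjusted p = 0.115) and 0.62 (0.16 to 1.09, limma adjusted p = 0.0615). Without UNC0638 replicate 3 the differences from UNC0638 passed, at 0.53 for TEX14 (adjusted p = 0.0237) and 0.55 for TAF7L (adjusted p = 0.00781). That replicate was set apart for its likeness to the G9a siRNA replicates in these same data. Its removal favours a difference, so these passes add no separate support. The difference of TEX14 from UNC0638 also passed without background subtraction (0.54, adjusted p = 0.0499). Both differences from WIZ siRNA passed with the spread taken from the 4 siRNA replicates alone. They were 0.52 for TEX14 (adjusted p = 0.00695) and 0.62 for TAF7L (adjusted p = 0.00847). The 2 siRNA treatments lie in different array sets, and only WIZ siRNA was dye-swapped. Neither set nor dye can thus be told apart from treatment here. Over the alternatives run these differences ranged from 0.21 to 0.66 for TEX14 and from 0.48 to 1.46 for TAF7L.

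With G9a siRNA, then, 4 of 9 member probes were called, beside 33.8% of all probes tested in either direction, a share close to that of the members. All 4 were up, and of all probes 15% were called up and 18.8% down. Whether the direction of the 4 departs from these shares was not tested. The 4 were the probes that had signal in that RNA. The median of the 9 was 0.10, and that of all probes -0.013. The 4 calls rest on 2 replicates in 1 dye orientation, and in the 3 gene lists described further on no gene was called without G9a siRNA replicate 2 either. Without G9a siRNA replicate 2 none of the 4 passed, and 0 of all probes were called, while without replicate 1 TAF7L alone of the 4 did not pass (0.61, adjusted p = 0.0841).

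**Figure D3:**
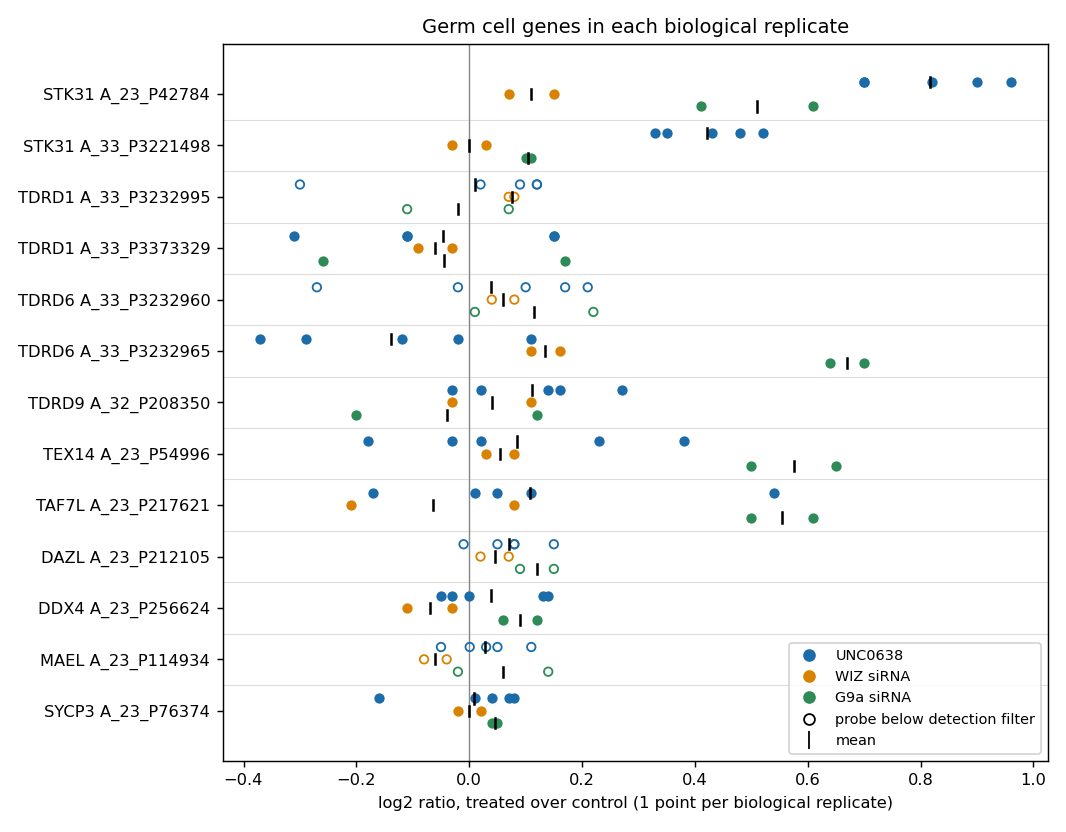
Log2 ratios of treated over control RNA for the 13 probes, 1 point per biological replicate, coloured by treatment (5 UNC0638, 2 WIZ siRNA and 2 G9a siRNA replicates); black ticks are means and open points are probes that did not pass the filter on signal. STK31 stands out under UNC0638 on both probes, and TDRD6 (A_33_P3232965), TEX14 and TAF7L under G9a siRNA.

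The other tested members had signal close to the background, and none was called in any treatment. TDRD1, which binds PIWI proteins in the piRNA granules, had means of -0.04 with UNC0638 and -0.06 with WIZ siRNA (limma adjusted p = 0.801 and 1), with replicates of UNC0638 from -0.31 to 0.15. TDRD9, a Tudor domain helicase, read 0.02, 0.14, 0.27, 0.16 and -0.03 with UNC0638 (mean 0.11, SE 0.063, limma adjusted p = 0.348), above 0 in 4 of 5 replicates. DDX4, the germ cell helicase also known as VASA, had means of 0.04 and -0.07 (limma adjusted p = 0.701 and 1). SYCP3, a protein of the lateral elements of the synaptonemal complex, had means of 0.01 and 0.0027 (limma adjusted p = 0.928 and 1). The 95% intervals under UNC0638 were -0.23 to 0.14 for TDRD1, -0.03 to 0.26 for TDRD9, -0.07 to 0.15 for DDX4 and -0.10 to 0.12 for SYCP3. With signal this near the background, they describe the spread of the ratios and do not bound a change of the gene. For TDRD9 each RNA was well above background on 2 of 7 UNC0638 arrays, and these were different arrays for the 2 RNAs. Under G9a siRNA none of the 4 was well above background in either RNA of either replicate, so no ratio is given for it there.

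The probes that did not pass the filter had no test. DAZL, an RNA-binding protein needed for germ cell development, ranged from -0.01 to 0.15 over the UNC0638 replicates and read 0.07 and 0.02 with WIZ siRNA. MAEL, a piRNA pathway protein, ranged from -0.05 to 0.11 and read -0.08 and -0.04. The dim TDRD1 probe ranged from -0.30 to 0.12 with UNC0638, and the dim TDRD6 probe from -0.27 to 0.21. Neither RNA of any of these 4 probes was well above background under G9a siRNA.

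With WIZ siRNA 0 of 9 member probes were called, and 0 had an unadjusted p under 0.05 in limma, beside 0.508% of all probes called. The median of the 9 was 0.0027, and that of all probes 0.015. The means ranged from -0.07, for TAF7L and DDX4, to 0.13, for TDRD6. With 2 replicates the 95% interval of STK31 (A_23_P42784) reached 0.31 and that of TDRD6 0.38, so a rise up to those sizes is within the error.

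STK31 was the gene of the piRNA pathway called with UNC0638. Of 23 tested genes of a piRNA list, 5 of them members, 1 rose with UNC0638 (STK31) and 0 fell, and with WIZ siRNA 0 were called. The 0 under WIZ siRNA depends on the spread used. With the spread of the WIZ siRNA replicates alone, 2 rose and 2 fell in this list, 3 and 7 in the meiosis list and 3 and 4 in the germ cell list that follow, and within array set 1 the counts were 2 and 1, 1 and 3, and 3 and 3. With G9a siRNA 5 rose and 2 fell. Besides TDRD6 and STK31 the rises were MYBL1, a transcription factor of piRNA precursors (1.16, SE 0.19, limma adjusted p = 0.00372), TDRD3 (0.94, adjusted p = 0.0122) and TEX15 (0.51, adjusted p = 0.0243). MOV10, an RNA helicase, fell by 0.86 (adjusted p = 0.0038) and PLD6, a mitochondrial nuclease of piRNA processing, by 0.33 (adjusted p = 0.0276). With the GC trend removed 2 of 19 rose and 3 fell, and with median centring 4 of 23 rose and 4 fell, so the balance of rises and falls in this list depends on the scaling. The G9a siRNA values of single genes, in this list and those that follow, are not corrected for the GC trend of the probes. Its part in them was not tested gene by gene. The median of the piRNA list was 0.01 with UNC0638, 0.02 with WIZ siRNA and -0.02 with G9a siRNA. Over all 18939 genes with a symbol, 2.25% rose and 2.33% fell with UNC0638, 0.0898% and 0.676% with WIZ siRNA, and 18.4% and 22.2% with G9a siRNA.

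Among 36 tested genes of the synaptonemal complex, cohesin and meiotic recombination, 1 rose and 1 fell with UNC0638, and 0 were called with WIZ siRNA. Of all genes with a symbol 2.25% rose and 2.33% fell with UNC0638. With G9a siRNA 10 of the list rose and 1 fell (27.8% and 2.78%), beside 18.4% and 22.2% of all genes. Whether the list departs from these shares was not tested. HSF2BP, a recombination factor, rose by 0.39 with UNC0638 (limma adjusted p = 0.0144), and the meiotic cohesin REC8 fell by 0.30 (adjusted p = 0.0136). Without UNC0638 replicate 3 they were 0.32 and -0.32 and still called (adjusted p = 0.0137 and 0.0152). Neither passed without replicate 4 (0.40 and -0.27, adjusted p = 0.0544 and 0.0601), with the UNC0638 replicates alone (adjusted p = 0.0734 and 0.0767) or within set 2 (0.126 and 0.136). REC8 also failed within set 1 (adjusted p = 0.051), with the authors' log2 ratios (0.0698) and with their log10 table (0.0849). HSF2BP passed in these 3 settings (adjusted p = 0.0252, 0.0479 and 0.0444). With G9a siRNA the largest rises beside TEX14 were in SYCP2, a partner of SYCP3 in the lateral elements (0.77, SE 0.17, limma adjusted p = 0.00938), SYCP2L (0.60, adjusted p = 0.00541) and MEIOC, a regulator of meiotic prophase (0.60, adjusted p = 0.0337), and TOP6BL, a partner of SPO11, fell by 0.48 (adjusted p = 0.0234) with treated RNA not well above background. Of the 10 that rose, IHO1 was not well above background in either RNA. The medians of the list were 0.04, -0.02 and 0.12. With the dye effect subtracted 5 rose and 1 fell with G9a siRNA, and with the GC trend removed 6 of 25 rose and 2 fell.

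Of 25 tested genes of germ cell RNA binding, transcription and specification, 0 rose and 2 fell with UNC0638, and 0 were called with WIZ siRNA. Of all genes with a symbol 2.25% rose and 2.33% fell with UNC0638. With G9a siRNA 9 of the list rose and 6 fell (36% and 24%), beside 18.4% and 22.2% of all genes. Whether this list departs from these shares was not tested. NANOS3, an RNA-binding protein of primordial germ cells, fell by 0.52 with UNC0638 (SE 0.047, limma adjusted p = 0.000514), and UTF1 by 0.47 (adjusted p = 0.0413). Without UNC0638 replicate 3, NANOS3 was -0.50 and still called (adjusted p = 0.00102), while UTF1 was -0.38 and was not (adjusted p = 0.0837). With the authors' log2 ratios and with median centring UTF1 was -0.47 and -0.42, neither called (adjusted p = 0.113 and 0.0986). UTF1 was also not called without replicate 1 (adjusted p = 0.0871), 2 (0.103) or 4 (0.13), or without any 1 of the siRNA replicates (0.056 to 0.0796), and NANOS3 not within set 2 (-0.50, adjusted p = 0.0776). With G9a siRNA the largest rises were in TAF4B, another germ cell TFIID subunit (1.09, SE 0.23, limma adjusted p = 0.00739), the receptor gene KIT (1.02, adjusted p = 0.00333) and CPEB1 (0.68, adjusted p = 0.0136), and the strongest falls in NANOS1 (-0.85, adjusted p = 0.00315), ZBTB16 (-0.71, adjusted p = 0.00372) and UTF1 (-0.64, adjusted p = 0.014). Of the 9 that rose, NANOG was not well above background in either RNA. The medians of this list were -0.02, -0.01 and 0.15, and under G9a siRNA -0.04 with the dye effect subtracted and -0.10 over the 17 genes left with the GC trend removed.

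**Figure D4:**
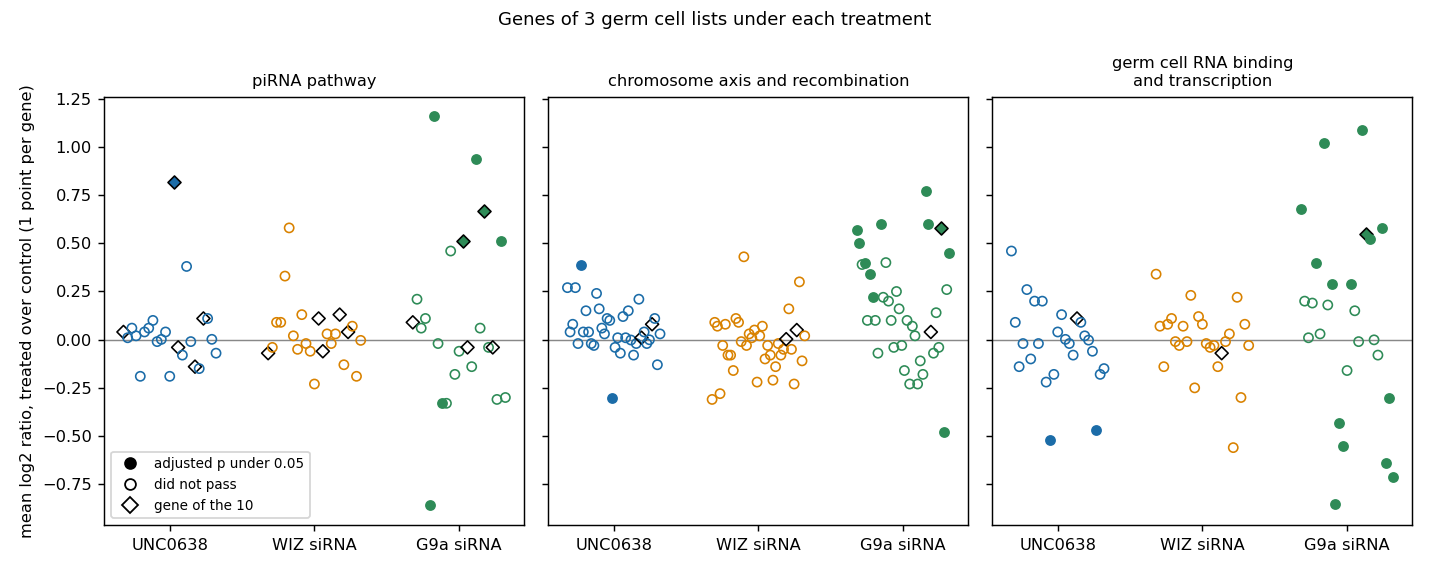
Mean log2 ratios of treated over control RNA for the tested genes of 3 germ cell lists under each treatment, 1 point per gene in alphabetical order within a treatment; filled points passed at an adjusted p under 0.05 in limma, and diamonds are members of the 10. STK31 is the 1 filled diamond under UNC0638, no point is filled under WIZ siRNA, and filled points lie on both sides of 0 under G9a siRNA.

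Of 28 genes of complexes that repress germ line genes, 0 were called with UNC0638, 1 (WIZ itself) fell with WIZ siRNA, and 8 rose and 7 fell with G9a siRNA. Over all genes with a symbol, 18.4% rose and 22.2% fell with G9a siRNA. With the dye effect subtracted, 6 of the 28 rose and 6 fell. With G9a siRNA the rises were led by the deacetylase gene HDAC2 (0.94, limma adjusted p = 0.00461), the Polycomb gene PCGF6 (0.79, adjusted p = 0.00631) and the HP1 gene CBX5 (0.67, adjusted p = 0.0288). The falls were led by EHMT2 itself (-1.66), the Polycomb genes L3MBTL2 (-1.20, adjusted p = 0.00323) and RING1 (-0.90, adjusted p = 0.00326).

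By Pearson correlation of log2 ratios over the 9 replicates, given as a description since all probes of an array share its hybridisation, the genes most like the first STK31 probe were HTATIP2 (0.989), FSTL5 (0.989) and WFDC2 (0.979). HTATIP2 had a mean of 0.50 with UNC0638, 0.15 with WIZ siRNA and 0.32 with G9a siRNA, and FSTL5 of 0.72, -0.12 and 0.38 in the same order. WFDC2, at 0.07, -0.31 and -0.05, shared the pattern across replicates but not the rise. The second STK31 probe was most like FGG (0.973), BLNK (0.972) and HTATIP2 (0.968), so HTATIP2 was among the nearest for both. TDRD6 was most like the zinc finger genes ZNF441 (0.987), ZNF286B (0.984) and ZNF605 (0.983), TEX14 most like SCAND2P (0.983), LIMD1 (0.977) and GLT8D1 (0.970), and TAF7L most like ANKEF1 (0.987), C1RL-AS1 (0.978) and ZNF570 (0.976).

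The files place the STK31 probe A_23_P42784 at chr7:23872041-23872100, the TDRD9 probe at chr14:104518565-104518624, the TEX14 probe at chr17:56634110-56634169 and the TAF7L probe at chrX:100523939-100523998, on build 37.1. The probe of DAZL lies at chr3:16628817-16628876 and that of MAEL at chr1:166991073-166991132. Those of DDX4 and SYCP3 each align in 2 blocks, at chr5:55111204-55111251 and chr5:55112291-55112302 and at chr12:102128796-102128822 and chr12:102130815-102130847. No position is given in the files for the probes of TDRD1 and TDRD6 and for the second STK31 probe.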

How the data were processed

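Dual-colour Agilent Human 8x60K arrays were read from 13 deposited scanner tables, in which, per the file headers, the authors gave mean spot intensity and the median and SD of the local background for each channel before normalization. Channel 2 was taken as Cy5 because WIZ was then lower on all 4 WIZ siRNA arrays in both orientations. The same tables hold the authors' log2 ratios, and a deposited series table holds the authors' log10 ratios, whose direction was control over treated on 8 arrays and treated over control on 5 when set against the scanner values; both served as alternatives. Their centring, and the software and settings behind them, are not given in the sources used here.

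Intensities were corrected with normexp (offset 50) and normalized within each array by loess (4259 control spots of 62976 had weight 0), spots of a probe were averaged, ratios were turned to treated over control, and the arrays of a dye swap were averaged. The 9 biological replicates entered limma 3.58.1 (R 4.3.3; lmFit and eBayes, 1 mean per treatment, 6 residual degrees of freedom), with Benjamini-Hochberg adjustment over 34619 probes. Adjusted p-values given with an alternative come from the same limma test. Where the dye effect was subtracted, it was taken only from replicates without a dye swap. Nothing says beyond "biological" how replicates were grown. The script was tested on simulated data of the UNC0638 design over 34619 probes, where 89% of changes of 1 and 100% of changes of 2 on the log2 scale were recovered. Both sizes exceed the mean log2 ratio of every member probe, and changes in the siRNA groups were not simulated. The recovery of changes of the size reported here is thus not known.

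All 13 probes of the genes were described. Genes named from a list were, by rule, up to 3 per direction and treatment with the largest change past the threshold, besides the members, and for each called member the 3 genes with the highest correlation to it. The members and the lists were chosen with earlier results of these data known. Sequences were available for 8 of the 13 probes and 6 of the 9 tested (66.7%), so a check of GC content over the members is void, and GC values are given for single probes. EHMT1 had 3 probes that differed in sign, and its brightest probe stands for it among the repressor genes. The values of lists and list genes under each alternative, the GC class medians and the single dye orientations were added after seeing the data.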

Additional observations from a re-analysis of the deposited data

Results flagged for a closer look

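Among the UNC0638 replicates of the 13 probes, 1 replicate lay far from the other 4 for 2 probes, both near the background. SYCP3 read -0.16 in replicate 3, against 0.01 to 0.08 in the others. The dim TDRD1 probe (A_33_P3232995) read -0.30 in replicate 5, against 0.02 to 0.12. Chance alone marks about 1 in 20 such groups, and 13 were examined.

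In 4 cases the effect on a probe differed between treatments by limma's test of the difference. STK31 (A_23_P42784) was lower under WIZ siRNA than under UNC0638 by a log2 difference of -0.71, and its other probe (A_33_P3221498) lower under G9a siRNA than under UNC0638 by -0.32, where G9a siRNA and its control were both not well above background. TDRD6 (A_33_P3232965) was higher under G9a siRNA than under UNC0638 by 0.81 and than under WIZ siRNA by 0.54. With the dye effect subtracted the last of these was 0.31 and was not called (limma adjusted p = 0.184). Array set cannot be told apart from treatment in it.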

How the results depend on the processing

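No direction of a called member value turned under any alternative run. The count of member probes called with UNC0638, 2 as reported, was 1 with the brightest probe per gene and 1 with the GC trend removed (both settings leave 1 STK31 probe), 0 in array set 2 alone, and 2 without each single replicate. With G9a siRNA, 4 as reported, it was 2 with the dye effect subtracted, 1 with the GC trend removed (TDRD6 has no probe sequence and leaves that test), and 0 to 4 without single replicates. For WIZ siRNA minus UNC0638, 1 as reported, it was 0 with the authors' log2 ratios, the authors' log10 table, the dye effect subtracted and the array set as a block, 2 in array set 1 alone, and 0 to 1 without single replicates. For G9a siRNA minus UNC0638, 2 as reported, it was 1 with the authors' log2 ratios, the brightest probe, the dye effect subtracted and the GC trend removed, 0 with the log10 table, with their own replicates alone, with the array set as a block and in set 2 alone, and 0 to 4 without single replicates. For G9a minus WIZ siRNA, 1 as reported, it was 0 with the authors' log2 ratios, the log10 table, median centring and the dye effect subtracted, 2 with the brightest probe, 4 with their own replicates alone, and 0 to 4 without single replicates. With the GC trend removed it was 0, and TDRD6, the probe called here, was not tested. The probes called in G9a siRNA minus UNC0638 were not tested there either, and the 1 called was the other STK31 probe. Beyond fewer probes or samples the cause was not tested. Same-numbered replicates did not pair (correlations of deviations -0.277 to 0.365), and with the replicate number as a block 1, 4 and 4 member probes differed in these 3 comparisons. All-probe counts ranged from 32 to 1864 for UNC0638, 17 to 8868 for WIZ siRNA and 0 to 13522 for G9a siRNA. Signal near the background limits 9 of the 13 probes.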
